A study of Mus musculus with 9 samples.

Results

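Laminins and integrins were followed through liver regeneration as the 38 protein coding genes whose symbols begin with *Lama*, *Lamb* or *Lamc* and a number, or with *Itga* or *Itgb*. Genes of integrin-associated proteins that share those letters (*Itgb1bp1*, *Itgb1bp2*, *Itgb3bp* and *Itgbl1*) were left out. The set held 11 laminin chains and 27 integrin chains of the 43346 genes counted, and the rule uses no measured value. RNA was sequenced from whole livers of 12-week-old male C57/BL6 mice in 3 groups of 3 livers. Baseline livers were the tissue removed at a 70% hepatectomy from mice given vehicle (saline), and the other 2 groups were liver remnants collected 40 h after such surgery from mice given either vehicle or NSC87877 (NSC), a small molecule inhibitor of the phosphatases SHP2 and SHP1. NSC was given at 7.5 mg/kg per dose, 15 mg/kg per day, from 12 h before surgery until collection, so surgery was shared by both 40 h groups, whereas the baseline livers had not yet regenerated. The lobes removed, which the study's methods give as the left and right median and the left lateral, are not those left as the remnant. Lobe and time after surgery therefore cannot be told apart in the comparisons with baseline. The labels do not tie a baseline liver to a remnant of the same mouse, and no NSC-treated liver at the time of surgery was analysed here. The comparisons addressed which extracellular matrix and adhesion genes differ between the removed tissue and the remnant at 40 h, and whether NSC changes them.

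Laminins are basement membrane glycoproteins, each built of an alpha, a beta and a gamma chain, and they polymerise into a sheet that nidogens and the proteoglycans perlecan and agrin tie to type IV collagen. Integrins are transmembrane receptors made of an alpha and a beta chain: the alpha chain largely sets which ligand is bound, and the beta tail couples to actin through talin and kindlin. In the liver, a full basement membrane surrounds bile ducts and portal vessels, whereas hepatocytes face the sinusoids across a loose matrix that is rich in fibronectin and collagen.

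Promoter sequences are shown for the 4 genes that passed the test in at least 1 comparison and whose RefSeq start (GRCm38.p6) is the first base of the gene in the deposited table: *Itgav* and *Itga1*, alpha chains that rose with NSC, *Itgb1*, the beta chain both can pair with, which rose too, and *Itgb7*, which fell. *Lama5* is added because it had the smallest p among these genes in the direct comparison of NSC with vehicle. Each line holds the 250 bases before the start, 5′ to 3′ on the strand of the gene, and capitals mark the GC box GGGCGG or its reverse complement CCGCCC, the letters bound by SP1 family factors.
Itgav (chr2:83724147-83724396, plus strand): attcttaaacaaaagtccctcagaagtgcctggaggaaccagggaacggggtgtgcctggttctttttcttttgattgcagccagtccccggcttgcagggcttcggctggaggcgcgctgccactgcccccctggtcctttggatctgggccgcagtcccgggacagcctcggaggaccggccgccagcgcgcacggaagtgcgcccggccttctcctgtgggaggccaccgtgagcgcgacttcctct
Itgb1 (chr8:128685404-128685653, plus strand): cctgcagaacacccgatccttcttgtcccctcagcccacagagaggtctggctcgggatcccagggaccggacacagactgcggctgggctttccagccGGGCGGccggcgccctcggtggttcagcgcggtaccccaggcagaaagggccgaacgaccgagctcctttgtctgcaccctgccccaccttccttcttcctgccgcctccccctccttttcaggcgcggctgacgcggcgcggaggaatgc
Itga1 (chr13:115101965-115102214, minus strand): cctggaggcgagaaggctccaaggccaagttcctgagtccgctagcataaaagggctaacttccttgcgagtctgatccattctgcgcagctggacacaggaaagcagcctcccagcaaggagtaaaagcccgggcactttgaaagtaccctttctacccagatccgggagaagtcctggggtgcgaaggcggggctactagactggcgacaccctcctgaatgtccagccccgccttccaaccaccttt
Itgb7 (chr15:102231936-102232185, minus strand): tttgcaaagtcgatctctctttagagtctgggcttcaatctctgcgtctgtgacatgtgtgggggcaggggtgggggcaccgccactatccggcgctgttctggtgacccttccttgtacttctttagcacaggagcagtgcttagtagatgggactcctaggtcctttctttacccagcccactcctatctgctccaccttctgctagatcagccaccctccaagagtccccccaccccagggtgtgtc
Lama5 (chr2:180225860-180226109, minus strand): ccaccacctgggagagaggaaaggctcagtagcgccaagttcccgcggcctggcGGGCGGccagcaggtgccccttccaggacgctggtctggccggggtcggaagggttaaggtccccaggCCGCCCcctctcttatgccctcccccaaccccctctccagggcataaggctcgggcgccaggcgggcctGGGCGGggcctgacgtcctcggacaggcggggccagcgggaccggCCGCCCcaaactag

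The *Lama5* window held 4 GC boxes and the *Itgb1* window held 1, while the windows of *Itgav*, *Itga1* and *Itgb7* held 0. Their GC content was 72.4% for *Lama5*, 68.0% for *Itgb1*, 64.4% for *Itgav*, 57.6% for *Itga1* and 56.0% for *Itgb7*, against a median of 52.4% over all 32851 RefSeq windows of this length. RefSeq gave a window for 24 of the 38 genes, and 8 of them held a GC box, as did 32.7% of all windows. The AP-1 letters TGANTCA, searched on both strands, occurred in 1 of the 24 (*Itgax*) and in 6.75% of all windows, and the TEAD letters GGAATG in 2 of the 24 (*Itgb1* and *Itga10*) and in 12.6% of all windows. Matches of different motifs can share up to 2 letters as spelled, and a match or its absence describes only these letters in this window.

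Libraries held 23997363 to 42887589 counts assigned to genes, so 3 counts, taken as the limit of detection, correspond to 0.0751 to 0.117 CPM (counts scaled to a common library total), for counting error only. The CPM below are scaled between libraries by the trimmed mean of M values (TMM) and suit comparisons of 1 gene across livers, while FPKM, the deposited counts scaled by gene length and library total, is used to compare genes. The edgeR quasi-likelihood test was fitted to the 15024 genes that passed its filter on low counts, and a gene was said to rise or fall when its Benjamini-Hochberg adjusted p over all of them was under 0.05. Of the 38 genes, 34 passed the filter, and *Itgad* (at most 1 count in a library), *Itgb2l* (at most 2), *Itgb6* (at most 5) and *Itga11* (at most 17) did not. NSC liver 1 had the highest of the 3 NSC values for 26 of the 34 genes and NSC liver 3 the lowest for 25, and vehicle liver 3 had the lowest vehicle value for 24. In bulk RNA, fewer cells of a type and less RNA per cell cannot be told apart.

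Per gene length, beta chains were at the top of the order. *Itgb1*, the beta chain shared by most matrix-binding integrins, had 32.0 ± 2.95 FPKM at baseline (mean ± SD, n = 3), 42.1 ± 5.22 FPKM with vehicle and 54.9 ± 10.7 FPKM with NSC, the highest mean of all 38 genes in each group. *Itgb5*, which pairs with the alpha v chain to bind vitronectin, followed at 21.0 ± 3.38 FPKM at baseline, and *Itga5*, the fibronectin receptor alpha chain, was next at 8.61 ± 3.86 FPKM. These 3 did not overlap at baseline, whereas at 40 h the ranges of *Itgb5* and *Itga5* overlapped with vehicle and with NSC. *Itga7*, a laminin receptor alpha chain, followed at 3.40 ± 0.480 FPKM at baseline, above *Lamc1* (2.22 ± 0.173 FPKM), the most abundant laminin chain, and *Itga1* (2.19 ± 0.112 FPKM), whose ranges overlapped each other. From *Itgb2* at 1.51 ± 0.180 FPKM down to *Lama5* at 0.413 ± 0.0311 FPKM, each gene overlapped its neighbour in the baseline order. The plot of FPKM by gene shows that the laminin chains drawn lay below *Itgb1*, *Itgb5* and *Itga5* in every group.

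**Figure D1:**
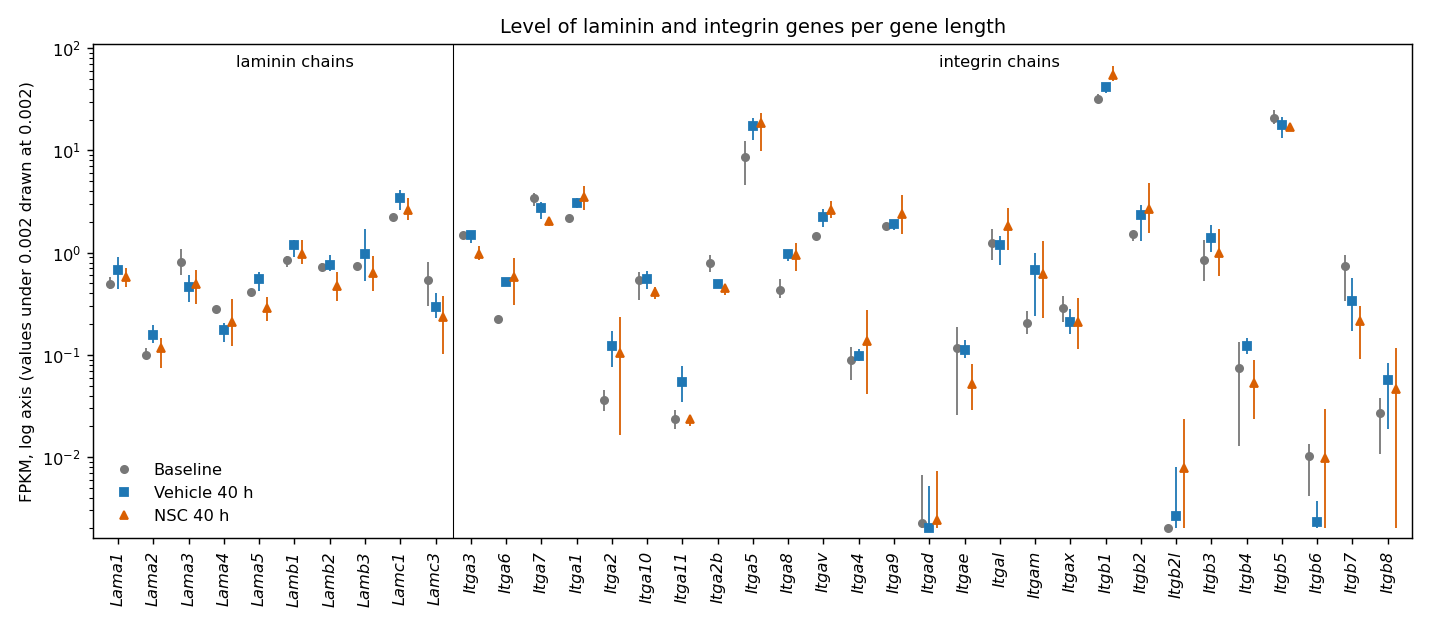
Mean FPKM (log axis) of 37 of the 38 genes in the 3 groups, with a line from the lowest to the highest of 3 livers; laminin chains stand left of the vertical line. *Itgb1* has the highest mean in each group (32.0, 42.1 and 54.9 FPKM), and *Itgad*, *Itgb2l* and *Itgb6* lie at the bottom.

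The vehicle and NSC remnants share their 3 baseline livers, so their values are set side by side and are not independent of each other. With vehicle, 4 of the 34 tested genes rose (*Itga6*, *Itga8*, *Itgav* and *Lamc1*) and 0 fell, or 11.8%, against 23.7% of all tested genes that passed this test (12.7% higher and 11.0% lower). With NSC, 5 rose (*Itga6*, *Itga8*, *Itgav*, *Itgb1* and *Itga1*) and 6 fell (*Lamb2*, *Lamc3*, *Itga3*, *Itga7*, *Itga2b* and *Itgb7*), or 32.4%, against 34.7% of all tested genes (18.2% higher and 16.5% lower). With an absolute log2 fold change over 1.5 asked for as well, 0 passed with vehicle (7.22% of all tested genes), 1 with NSC (*Itgb7*, 8.13%) and 0 between the treatments (0.0200%). In the direct comparison of NSC with vehicle 0 of the 34 passed edgeR's test, where 0.0399% of all tested genes did. At an unadjusted p under 0.05 the direct comparison gave 5 of 34, all lower with NSC, against 19.5% of all tested genes in either direction and 10.2% lower, and DESeq2 called 3 (*Lama5*, *Lamb2* and *Itga3*), where 2.98% of all genes passed. Leaving out single livers gave 1 gene (without any 1 of the baseline livers), 2 genes (without vehicle liver 1) or 9 genes (without NSC liver 1) in place of 4 with vehicle. With NSC it gave 4 genes (without baseline liver 3) in place of 11. The shares of all tested genes in the same fits were 15.2%, 18.9% and 14.8% without baseline livers 1, 2 and 3, 15.4% without vehicle liver 1 and 29.5% without NSC liver 1 for vehicle, and 23.4% without baseline liver 3 for NSC. A gene that passed against baseline with NSC and not with vehicle is therefore not shown to differ between the treatments.

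**Figure D2:**
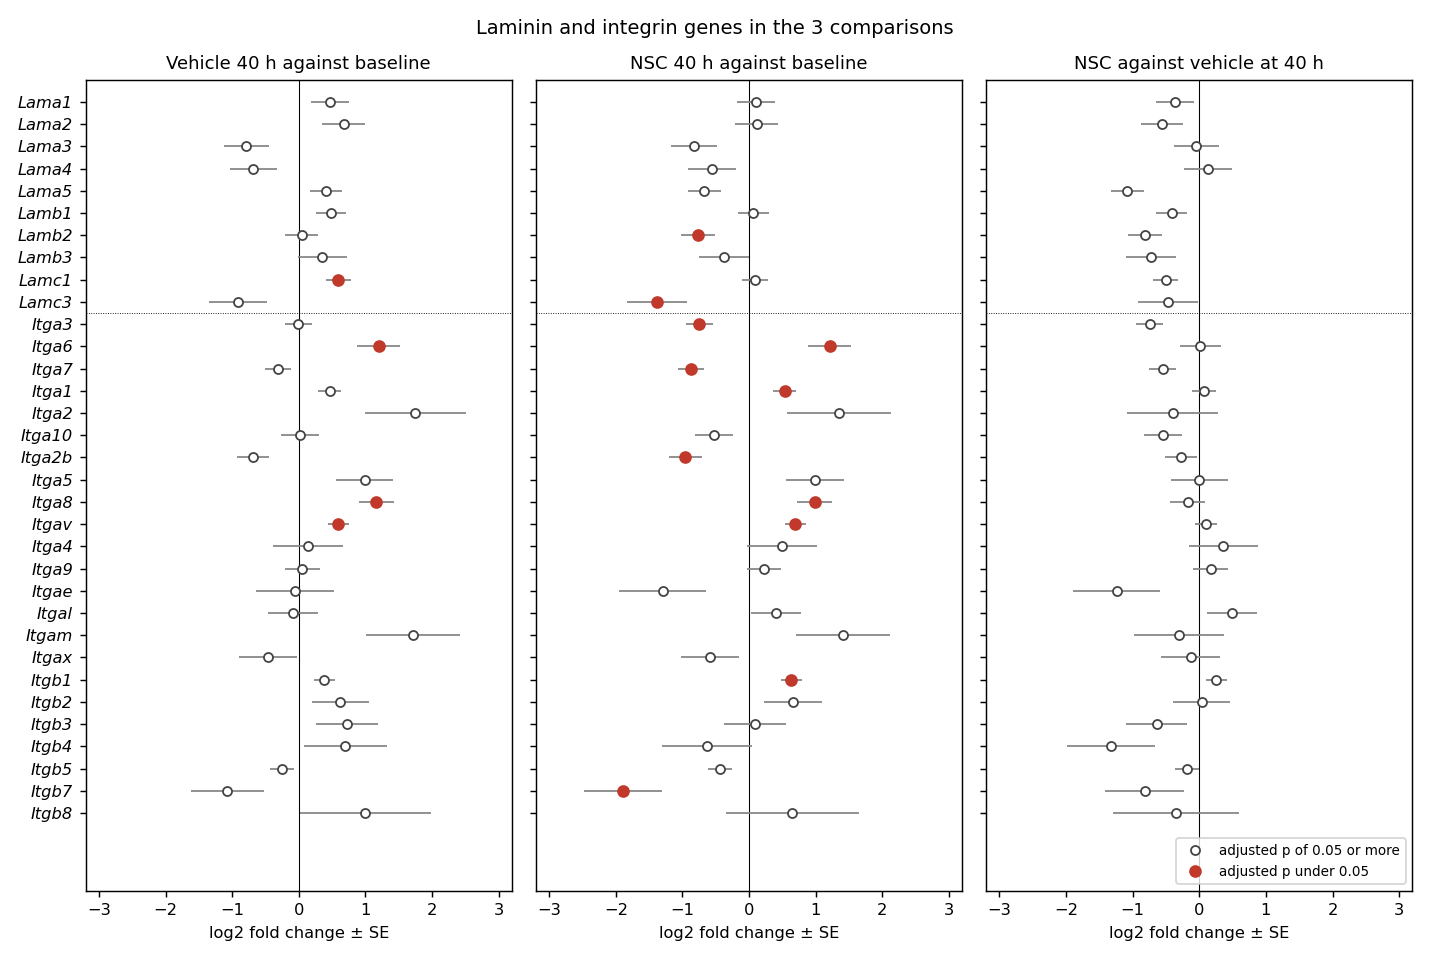
Log2 fold change ± SE of 33 of the 34 tested genes in the 3 comparisons, laminins above the dotted line; filled points passed the test at an edgeR adjusted p under 0.05 (4 genes for vehicle, 11 for NSC, 0 for NSC against vehicle). *Lama5* lies farthest left of 0 among the laminins in the direct comparison, at -1.08.

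Among laminins, the gamma chain *Lamc1* rose with vehicle, and the gamma chain *Lamc3* and the beta chain *Lamb2* fell with NSC. No alpha chain passed the edgeR test described above in any comparison, although *Lama3* and *Lama5* passed in some alternatives given below. *Lamc1* encodes the gamma chain of most laminin trimers, and *Lamb2* a beta chain known from vascular, neuromuscular and glomerular basement membranes. *Lamc1* had 20.4, 17.4 and 19.3 CPM in baseline livers 1 to 3, 32.3, 31.3 and 22.6 CPM in the vehicle livers and 25.4, 18.8 and 16.4 CPM in the NSC livers. All vehicle livers were above all baseline livers, and the NSC livers overlapped both groups. The log2 fold change of *Lamc1* (chr1:153218922-153332786) from baseline was 0.59 ± 0.19 (edgeR adjusted p = 0.0413) with vehicle and 0.09 ± 0.19 (edgeR adjusted p = 0.75) with NSC. The normalised level of *Lamb2* was 4.23, 4.95 and 4.59 CPM in the baseline livers, 5.43, 4.48 and 4.28 CPM in the vehicle livers and 3.54, 2.58 and 1.92 CPM in the NSC livers. The NSC livers lay below every other liver, and the vehicle and baseline livers overlapped. *Lamb2* (chr9:108479736-108490530) differed from baseline by 0.05 ± 0.25 (edgeR adjusted p = 0.916) with vehicle and fell by 0.77 ± 0.25 on the log2 scale (edgeR adjusted p = 0.0338) with NSC.

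*Lamc3* encodes a less widespread gamma chain that can replace the usual one in some trimers. In baseline livers, *Lamc3* lay at 1.90, 5.16 and 3.27 CPM, against 2.33, 1.68 and 1.44 CPM with vehicle and 2.07, 0.611 and 1.25 CPM with NSC. Baseline liver 2 stood above the rest, and baseline liver 1 lay below vehicle liver 1 and NSC liver 1, so the groups overlapped. *Lamc3* (chr2:31887291-31946539) had a log2 fold change of -0.91 ± 0.44 (edgeR adjusted p = 0.154) with vehicle and -1.38 ± 0.45 (edgeR adjusted p = 0.0336) with NSC. The alpha chains, *Lamb1* and *Lamb3* did not pass this edgeR test in either comparison with baseline. Of the alpha chains, *Lama3*, an epithelial chain, lay at -0.79 ± 0.34 (edgeR adjusted p = 0.115) with vehicle and -0.83 ± 0.34 (edgeR adjusted p = 0.0799) with NSC, and *Lama4*, an endothelial and mesenchymal chain, at -0.68 ± 0.36 (edgeR adjusted p = 0.186) and -0.56 ± 0.36 (edgeR adjusted p = 0.244). *Lama1*, *Lama2*, *Lamb1* and *Lamb3* had log2 fold changes of 0.35 to 0.67 with vehicle and of -0.37 to 0.11 with NSC. Over the 11 laminins the median log2 fold change was 0.41 with vehicle and -0.37 with NSC, where the median of all tested genes was 0.01 in both.

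Shares of the summed FPKM of their kind are given as a description with no test (mean ± SD, n = 3). Among alpha chains *Lama3* had the largest mean share at baseline (37.9% ± 7.03), and *Lama1*, an early embryonic and epithelial chain, had the largest at 40 h (32.8% ± 6.52 with vehicle and 34.2% ± 4.11 with NSC). The share of *Lama5* was 19.9% ± 1.13 at baseline, 27.2% ± 4.43 with vehicle and 16.7% ± 2.85 with NSC, and every vehicle liver was above every other liver. The beta chains were more even, with *Lamb1* at 36.5% ± 3.64, 41.9% ± 9.73 and 47.3% ± 1.57 of their summed FPKM. Within that sum, *Lamb3* overlaps *Hsd11b1* and *G0s2* on the other strand. The strand setting of the counting is not given, so the beta chain shares and the level of *Lamb3* are less certain. Among the laminin-binding alpha integrins, *Itga6* went from 4.44% ± 0.600 at baseline to 11.0% ± 1.05 with vehicle and 15.9% ± 7.66 with NSC, and no 40 h liver overlapped the baseline livers.

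**Figure D3:**
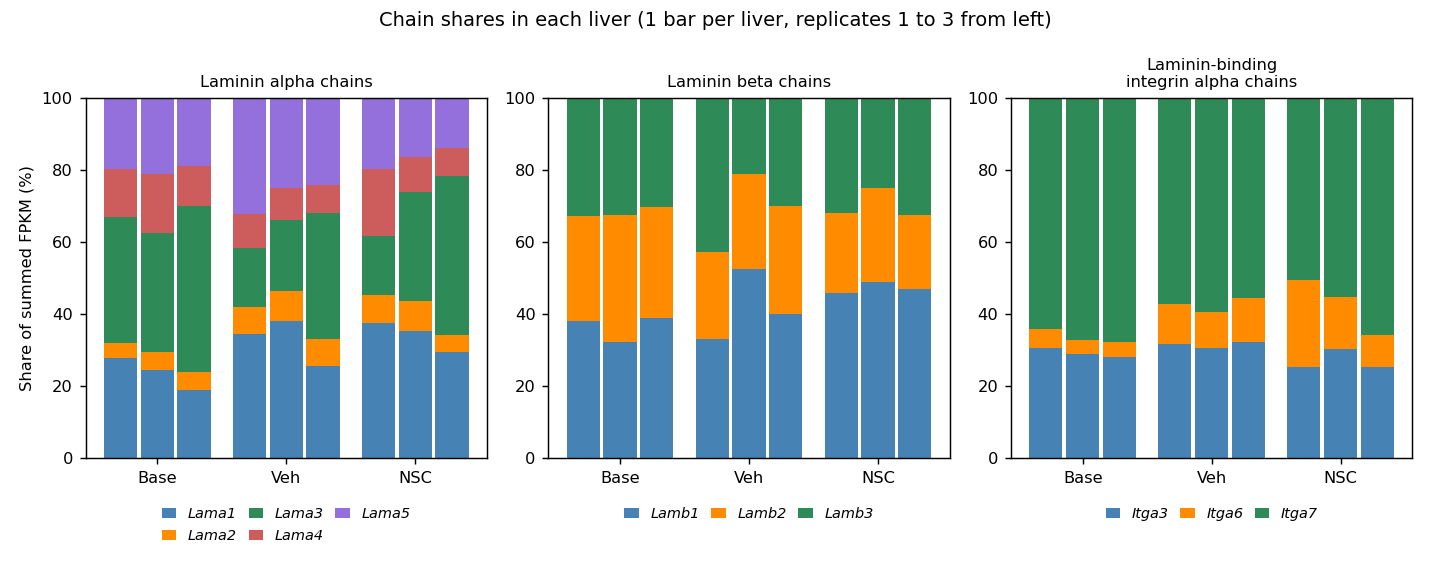
Share (%) of each gene in the summed FPKM of the laminin alpha and beta chains and of the laminin-binding integrin alpha chains, 1 bar per liver. *Itga6* makes up 3.97% to 5.11% of its kind at baseline against 9.01% to 24.1% at 40 h.

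The receptors that bind laminin moved in opposite directions: *Itga6* rose with vehicle and with NSC, whereas *Itga3* and *Itga7* fell with NSC. *Itga6* encodes the alpha chain of laminin receptors on epithelial cells, where it pairs with *Itgb1* or with *Itgb4*. *Itga6* had 2.15, 1.95 and 2.21 CPM in baseline livers 1 to 3, 4.83, 5.29 and 4.36 CPM in the vehicle livers and 7.17, 4.82 and 2.58 CPM in the NSC livers. Every 40 h liver was above every baseline liver, and NSC liver 3 was the lowest and NSC liver 1 the highest of the 40 h livers. *Itga6* (chr2:71745616-71858416) rose by 1.20 ± 0.32 (edgeR adjusted p = 0.0182) with vehicle and by 1.21 ± 0.32 (edgeR adjusted p = 0.0122) with NSC on the log2 scale, and NSC differed from vehicle by 0.01 ± 0.31 (edgeR adjusted p = 0.985). *Itga3* encodes the other main epithelial laminin receptor chain. The normalised level of *Itga3* was 8.15, 9.01 and 9.30 CPM in the baseline livers, 8.71, 10.3 and 7.38 CPM in the vehicle livers and 4.74, 6.42 and 4.58 CPM in the NSC livers. All NSC livers were below all other livers, and the vehicle livers overlapped the baseline livers. *Itga3* (chr11:95044474-95076801) had a log2 fold change of -0.00 ± 0.20 (edgeR adjusted p = 0.991) with vehicle and -0.75 ± 0.20 (edgeR adjusted p = 0.0132) with NSC.

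*Itga7*, best known as the laminin receptor of muscle, had the highest FPKM of the laminin-binding alpha chains. In baseline livers, *Itga7* lay at 12.0, 14.7 and 15.7 CPM, against 11.1, 14.0 and 8.93 CPM with vehicle and 6.69, 8.22 and 8.37 CPM with NSC. The NSC livers lay below all others, while vehicle livers 1 and 3 were below the baseline livers and vehicle liver 2 was among them. *Itga7* (chr10:128933813-128958277) changed by -0.32 ± 0.19 (edgeR adjusted p = 0.262) with vehicle and fell by 0.87 ± 0.20 on the log2 scale (edgeR adjusted p = 0.00561) with NSC. It overlaps *Mettl7b* on the other strand, and the strand setting of the counting is not given in the sources used here, although the library kit was stranded. *Itgb4*, the partner of *Itga6* in hemidesmosomes, was low at 0.0948 to 1.14 CPM across livers, with 0.70 ± 0.63 (edgeR adjusted p = 0.451) with vehicle and -0.63 ± 0.68 (edgeR adjusted p = 0.5) with NSC.

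The RGD-binding alpha chains *Itga8* and *Itgav* rose in both comparisons with baseline, and *Itga2b* fell with NSC. These chains recognise the arginine-glycine-aspartate motif of fibronectin, vitronectin, osteopontin and fibrinogen, and *Itga8* is known from stellate and smooth muscle cells, where it binds nephronectin. *Itga8* had 4.20, 2.96 and 2.71 CPM in baseline livers 1 to 3, 7.08, 8.68 and 6.35 CPM in the vehicle livers and 8.31, 6.62 and 4.62 CPM in the NSC livers. No 40 h liver overlapped the baseline livers, and the 2 treatments overlapped each other. *Itga8* (chr2:12106632-12301922) rose by 1.16 ± 0.26 (edgeR adjusted p = 0.00821) with vehicle and 0.99 ± 0.27 (edgeR adjusted p = 0.013) with NSC on the log2 scale. Of 14 tested stellate cell markers 7 rose and 1 fell with vehicle, and 4 rose and 2 fell with NSC, and their summed level was 364 to 405 CPM at baseline, 499 to 654 with vehicle and 332 to 585 with NSC, and the part of this in the *Itga8* result was not tested.

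*Itgav* encodes the alpha v chain, which with several beta chains binds vitronectin and latent TGF-beta. The normalised level of *Itgav* was 17.0, 15.4 and 16.7 CPM in the baseline livers, 27.3, 21.3 and 25.4 CPM in the vehicle livers and 31.3, 26.1 and 22.0 CPM in the NSC livers. Each 40 h liver was above the baseline livers, with NSC liver 1 the highest. *Itgav* (chr2:83724397-83806916) rose by 0.59 ± 0.16 (edgeR adjusted p = 0.02) with vehicle and by 0.70 ± 0.16 (edgeR adjusted p = 0.00635) with NSC. *Itga2b*, the platelet fibrinogen receptor chain made by megakaryocytes, went the other way. In baseline livers, *Itga2b* lay at 4.52, 3.66 and 5.38 CPM, against 2.58, 3.19 and 2.66 CPM with vehicle and 2.43, 2.58 and 1.96 CPM with NSC. All 40 h livers lay below the baseline livers. *Itga2b* (chr11:102453297-102470122) had a log2 fold change of -0.68 ± 0.24 (edgeR adjusted p = 0.0579) with vehicle and -0.96 ± 0.24 (edgeR adjusted p = 0.0101) with NSC. Of the 4 tested platelet markers 1 rose with vehicle, 0 passed with NSC and 0 fell. The summed level of all 7 listed was 7.75 to 9.19 CPM at baseline, 6.90 to 8.76 with vehicle and 9.10 to 16.1 with NSC, and *Gp1ba* had at most 3 counts in every library.

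*Itga5*, the classical fibronectin receptor chain, was the most abundant alpha chain per length and varied widely between livers of 1 group. *Itga5* had 40.9, 20.8 and 55.3 CPM in baseline livers 1 to 3, 86.8, 87.8 and 57.4 CPM in the vehicle livers and 39.1, 97.3 and 95.8 CPM in the NSC livers. The vehicle livers were above the baseline livers, with the lowest of them close to baseline liver 3, and NSC liver 1 was within the baseline range. Its log2 fold change was 0.99 ± 0.43 (edgeR adjusted p = 0.136) with vehicle and 0.99 ± 0.43 (edgeR adjusted p = 0.111) with NSC, so it did not pass.

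*Itga1*, whose product pairs with that of *Itgb1* to bind collagen, rose with NSC. The normalised level of *Itga1* was 13.6, 14.3 and 12.8 CPM in the baseline livers, 19.6, 18.2 and 18.6 CPM in the vehicle livers and 24.2, 20.2 and 14.7 CPM in the NSC livers. The 40 h livers did not overlap the baseline livers, although NSC liver 3 came close to baseline liver 2. *Itga1* (chr13:114958079-115101964) had a log2 fold change of 0.46 ± 0.18 (edgeR adjusted p = 0.0749) with vehicle and 0.54 ± 0.18 (edgeR adjusted p = 0.0335) with NSC, and it shares its strand with the overlapping gene *Pelo*, so reads there cannot be assigned with certainty. The other tested collagen-binding chains did not pass: *Itga2* was at 0.0679 to 0.900 CPM across livers, and *Itga10* at 1.72 to 3.48 CPM.

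Among beta chains, *Itgb1* rose and *Itgb7* fell with NSC. *Itgb1* had 150.2, 126 and 129 CPM in baseline livers 1 to 3, 177, 164 and 187 CPM in the vehicle livers and 249, 196 and 185 CPM in the NSC livers. Each 40 h liver was above each baseline liver, and NSC liver 1 was the highest of all. *Itgb1* (chr8:128685654-128733200) had a log2 fold change of 0.38 ± 0.16 (edgeR adjusted p = 0.1) with vehicle and rose by 0.64 ± 0.16 (edgeR adjusted p = 0.00905) with NSC, and NSC differed from vehicle by 0.25 ± 0.16 (edgeR adjusted p = 0.388). As a description, *Itgb1* made up 57.0% ± 4.14 of the summed FPKM of all beta chains at baseline, 65.7% ± 7.33 with vehicle and 72.1% ± 1.80 with NSC. *Itgb5* lay at -0.25 ± 0.18 (edgeR adjusted p = 0.347) with vehicle and -0.44 ± 0.18 (edgeR adjusted p = 0.0785) with NSC on the log2 scale, and *Itgb3*, the platelet and endothelial beta chain, at 0.72 ± 0.46 (edgeR adjusted p = 0.285) and 0.09 ± 0.46 (edgeR adjusted p = 0.901). *Itgb8*, which activates latent TGF-beta, had 0 counts in NSC liver 3 and at most 1.17 CPM elsewhere.

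*Itgb7* encodes a lymphocyte beta chain that pairs with *Itga4* for homing to the gut and with *Itgae* in epithelia. In baseline livers, *Itgb7* lay at 2.62, 0.947 and 2.67 CPM, against 0.726, 1.71 and 0.480 CPM with vehicle and 0.600, 0.815 and 0.235 CPM with NSC. Baseline livers 1 and 3 stood highest, baseline liver 2 was within the vehicle range, and all NSC livers were below the baseline livers. *Itgb7* (chr15:102215995-102231935) changed by -1.07 ± 0.55 (edgeR adjusted p = 0.177) with vehicle and fell by 1.89 ± 0.58 on the log2 scale (edgeR adjusted p = 0.0255) with NSC, with as few as 6 counts in a library. Of the 8 tested lymphocyte markers 0 rose and 2 fell with vehicle, and 0 rose and 1 fell with NSC. The summed level of all 13 listed was 3.88 to 13.3 CPM at baseline, 1.92 to 4.04 CPM with vehicle and 4.14 to 4.74 CPM with NSC, a move whose part in the *Itgb7* result was not tested.

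None of the tested leukocyte alpha chains or the alpha 4 and alpha 9 chains passed in any of the 3 comparisons. The normalised level of *Itgam* was 1.80, 1.07 and 1.22 CPM in the baseline livers, 4.78, 6.997 and 1.59 CPM in the vehicle livers and 7.44, 2.00 and 1.37 CPM in the NSC livers. *Itgam*, the chain of the myeloid complement receptor, was highest in NSC liver 1 and vehicle liver 2, and NSC liver 3 and vehicle liver 3 were within the baseline range. Its log2 fold change was 1.71 ± 0.71 (edgeR adjusted p = 0.113) with vehicle and 1.41 ± 0.71 (edgeR adjusted p = 0.155) with NSC. *Itgal*, the alpha chain of a main lymphocyte adhesion receptor, *Itgax*, the dendritic cell chain, *Itgae*, *Itga4* and *Itga9* ranged from -0.46 ± 0.43 to 0.14 ± 0.53 with vehicle and from -1.30 ± 0.66 to 0.50 ± 0.53 with NSC on the log2 scale. The value of *Itga4* with NSC was -0.40 without NSC liver 1 and -0.07 after a correction for GC content. *Itgb2*, the beta chain of *Itgal*, *Itgam* and *Itgax*, had 13.2 CPM in NSC liver 1 against 4.65 and 4.70 CPM in the other NSC livers, and its log2 fold change with NSC was 0.66 ± 0.43 (edgeR adjusted p = 0.262) and -0.03 without NSC liver 1. Of 14 tested macrophage markers 2 rose and 1 fell with vehicle and 6 rose with NSC, with summed levels of 247 to 336, 227 to 399 and 399.7 to 651 CPM in the order baseline, vehicle and NSC. Of 7 tested neutrophil markers 2 rose with vehicle and 4 with NSC. The summed levels of all 10 neutrophil markers listed were 4.12 to 12.9, 10.7 to 24.2 and 14.3 to 24.7 CPM in the same order.

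**Figure D4:**
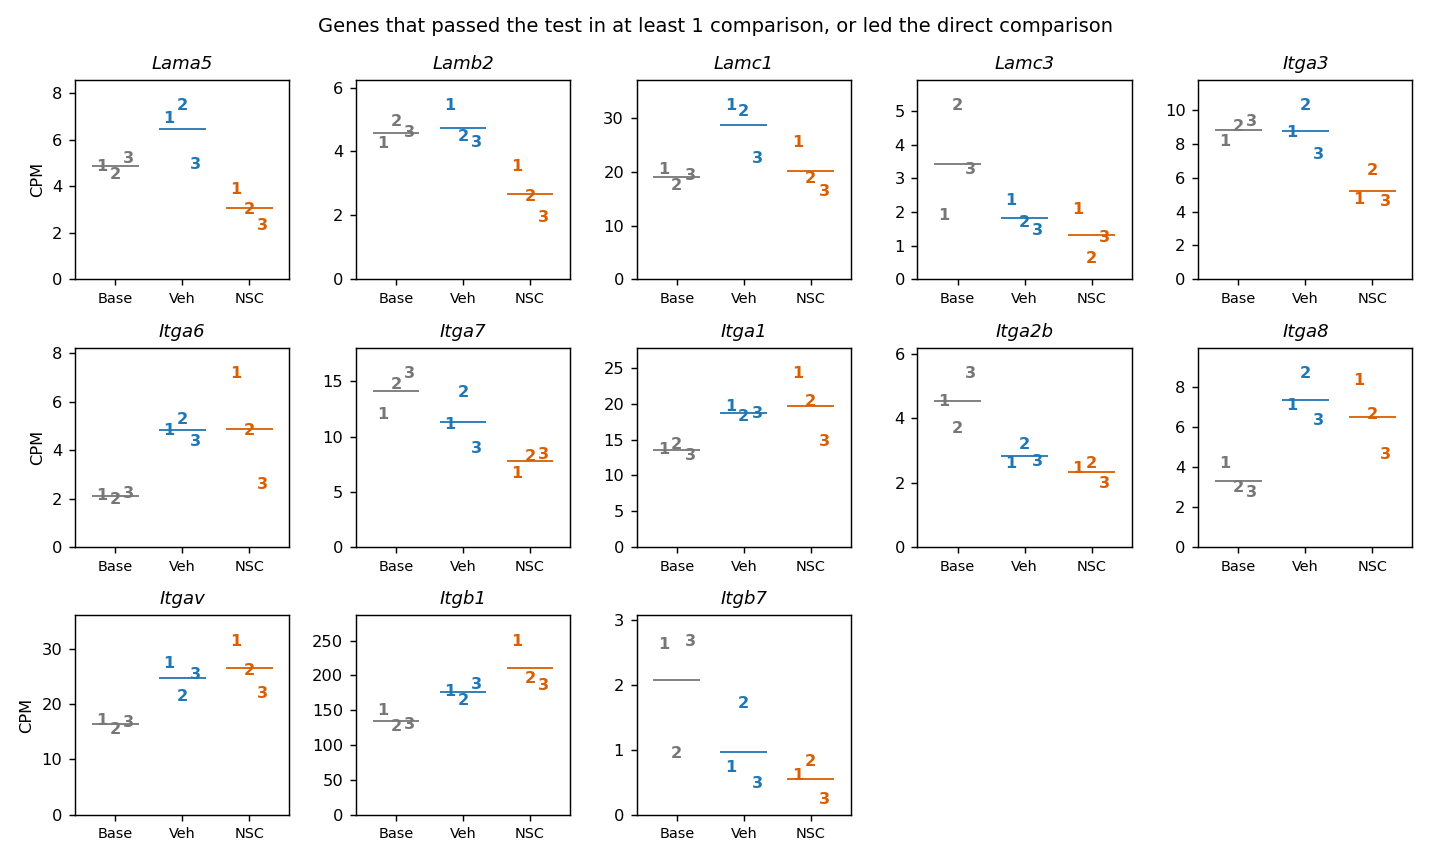
TMM-scaled CPM of the 12 genes that passed the test in at least 1 comparison and of *Lama5*; each digit is 1 liver, named by its replicate number, and each line a group mean. *Itga6*, *Itga8*, *Itgav*, *Itga1* and *Itgb1* are higher in every 40 h liver than in the baseline livers, and *Lamb2*, *Lama5*, *Itga3* and *Itga7* are lowest in the NSC livers.

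Between the 2 treatments at 40 h, the 4 genes with the smallest p were all lower with NSC, and none passed over all tested genes. *Lama5*, the alpha chain of most adult epithelial and endothelial basement membranes, led. *Lama5* had 4.87, 4.52 and 5.21 CPM in baseline livers 1 to 3, 6.93, 7.46 and 4.95 CPM in the vehicle livers and 3.84, 2.99 and 2.31 CPM in the NSC livers. Every NSC liver was below every other liver, vehicle livers 1 and 2 were above the baseline livers, and vehicle liver 3 was within the baseline range. *Lama5* (chr2:180176373-180225859) had a log2 fold change of -1.08 ± 0.25 (edgeR adjusted p = 0.0849) for NSC against vehicle, 0.41 ± 0.24 (edgeR adjusted p = 0.244) for vehicle against baseline and -0.67 ± 0.25 (edgeR adjusted p = 0.0531) for NSC against baseline. The next were *Itga3* at -0.74 ± 0.20 (edgeR adjusted p = 0.102), *Lamb2* at -0.82 ± 0.25 (edgeR adjusted p = 0.132) and *Itga7* at -0.55 ± 0.20 (edgeR adjusted p = 0.169), whose NSC livers were likewise below all vehicle livers.

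In this direct comparison 24 of the 34 genes had a log2 fold change below 0, where 48.5% of all tested genes did, and 10 of the 11 laminins were below 0. The median was -0.51 for the laminins and -0.19 for the 23 tested integrins, against 0.02 for all tested genes. The NSC livers lay wholly below the vehicle livers for 8 of the 34 genes (*Lama2*, *Lama5*, *Lamb2*, *Itga3*, *Itga7*, *Itga10*, *Itgae* and *Itgb4*) and wholly above them for 0, where 12.2% and 10.3% of all tested genes did. Without NSC liver 1, *Lamc1*, *Lama5* and *Lamb2* passed the direct test, all lower with NSC, in a fit where 6.46% of all tested genes passed, and without any other single liver 0 of these genes did.

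The direction of change with NSC went with the GC content of the transcripts. The 5 genes that rose with NSC had a GC content of 42.8% to 48.9% in their longest transcript and the 6 that fell 57.8% to 58.8%, with no overlap. Across the 34 genes Spearman's rho between log2 fold change and GC content was -0.66 for NSC against baseline, -0.54 for NSC against vehicle and -0.42 for vehicle against baseline, and over the 14900 tested genes with a known GC content it was -0.41, -0.56 and -0.13, as descriptions across genes that share the same 9 libraries. After a correction of each library for its trend with GC content, an alternative chosen after the data were seen, these last values were 0.0082, -0.015 and 0.0094, and the median of all tested genes moved to -0.10 for vehicle and -0.07 for NSC against baseline. With that correction 3 of the 34 genes passed with vehicle (*Itga6*, *Itga8* and *Lamc1*) and 3 with NSC (*Itga6* and *Itga5* higher and *Itga7* lower), against 28.2% and 30.4% of all tested genes. Between the treatments 0 of the 34 passed, as did 0 of all 15024 tested genes. *Itgav*, *Itga8*, *Itgb1*, *Itga1*, *Itga3*, *Itga2b*, *Itgb7*, *Lamb2* and *Lamc3* no longer passed with NSC, with log2 fold changes of the same sign, such as 0.25 for *Itgav*, -0.38 for *Itga3* and, closest to 0, 0.052 for *Itga1* (edgeR adjusted p = 0.827). The corrected log2 fold change with NSC was 1.11 for *Itga6* (edgeR adjusted p = 0.021), -0.51 for *Itga7* (edgeR adjusted p = 0.0238) and 1.30 for *Itga5* (edgeR adjusted p = 0.0372). Between the treatments 9 of the 11 laminins stayed below 0 after the correction, where 46.0% of all tested genes did, with a median of -0.33 against 0.03 for all tested genes.

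**Figure D5:**
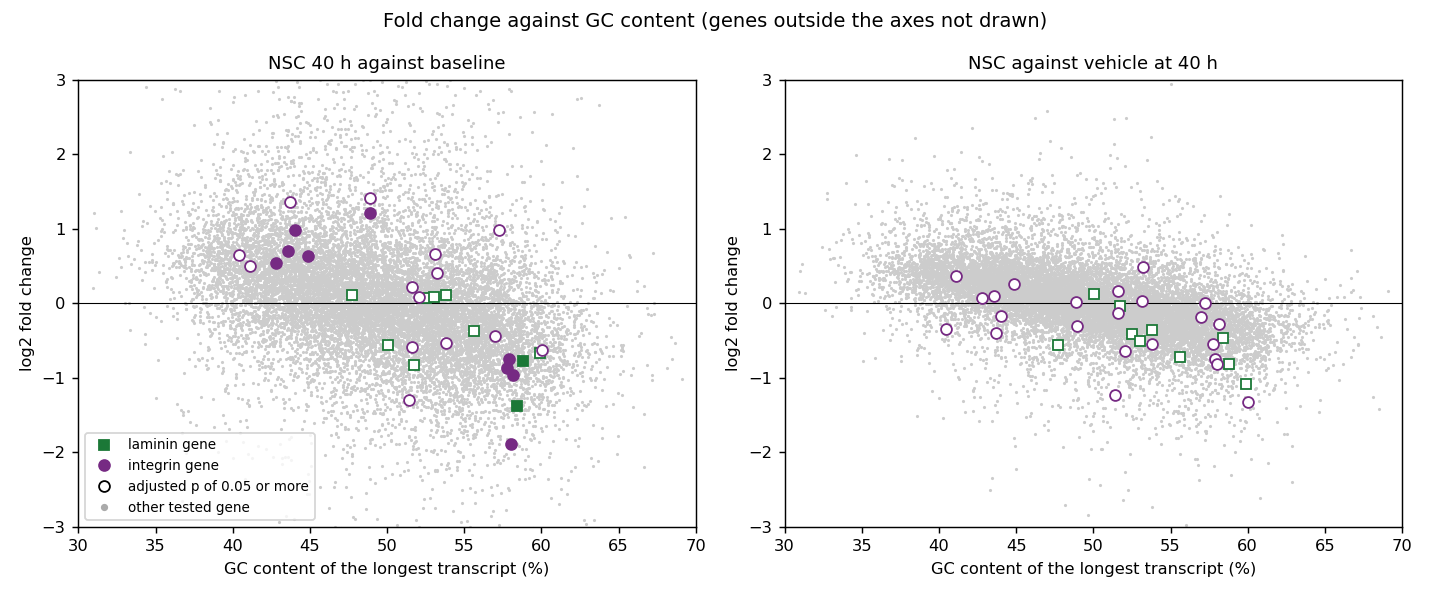
Log2 fold change against the GC content (%) of the longest transcript for NSC against baseline and NSC against vehicle; grey points are all tested genes, squares laminins, circles integrins, and filled symbols passed the test. The 5 integrins that rose with NSC lie at 42.8% to 48.9% GC and the 6 genes that fell at 57.8% to 58.8%.

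The other genes of this system were read from lists of basement membrane partners, further integrin ligands and cytoplasmic adhesion proteins. None of their genes passed edgeR's test between the treatments. DESeq2 called 5 basement membrane partners, 2 ligands and 3 adhesion complex genes there (2.98% of all genes), and edgeR without NSC liver 1 called 7, 5 and 4 (6.46% of all tested genes). These calls were all lower with NSC but for 1 adhesion complex gene in each. Against baseline, 23.7% of all tested genes passed with vehicle and 34.7% with NSC, to be set beside the counts of the 3 lists. Of 19 basement membrane partners, 7 rose and 3 fell with vehicle and 5 rose and 4 fell with NSC, with a median log2 fold change of 0.62 and 0.13 against 0.01 for all tested genes. *Nid1*, the nidogen that links laminin to collagen, rose by 2.11 ± 0.30 (edgeR adjusted p = 0.001) with vehicle and 1.69 ± 0.30 (edgeR adjusted p = 0.00199) with NSC, and *Col4a1*, a type IV collagen chain, by 1.78 ± 0.25 (edgeR adjusted p = 0.000756) and 0.92 ± 0.25 (edgeR adjusted p = 0.0141). The proteoglycan gene *Agrn* fell, with -0.54 ± 0.17 (edgeR adjusted p = 0.0365) and -1.23 ± 0.17 (edgeR adjusted p = 0.000379), as did the dystroglycan gene *Dag1*, a laminin receptor that is no integrin, with -0.52 ± 0.17 (edgeR adjusted p = 0.0486) and -0.67 ± 0.17 (edgeR adjusted p = 0.0108). Between the treatments 17 of the 19 were below 0 with a median of -0.57, and their summed level was 1205 to 1433 CPM at baseline, 960.4 to 1418 CPM with vehicle and 627 to 816 CPM with NSC. The collagen XVIII gene *Col18a1* had the highest mean of the 19 in each group, at 970.0 ± 93.9 CPM at baseline, 728 ± 169.6 CPM with vehicle and 352 ± 14.1 CPM with NSC (mean ± SD, n = 3). This 1 gene makes up a large part of the summed level, which therefore does not describe the 19 genes as a group. Its log2 fold change was -0.41 ± 0.19 (edgeR adjusted p = 0.136) with vehicle and -1.46 ± 0.19 (edgeR adjusted p = 0.000283) with NSC.

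Of 23 tested ligands other than laminins and collagens, 11 rose and 1 fell with vehicle and 8 rose and 1 fell with NSC, with medians of 0.92, 0.75 and, between the treatments, -0.28. *Spp1* (osteopontin), a ligand of the alpha v and alpha 8 chains, rose by 1.14 ± 0.22 (edgeR adjusted p = 0.00311) with vehicle and 1.35 ± 0.22 (edgeR adjusted p = 0.000874) with NSC, and *Icam1*, the ligand of leukocyte integrins, by 2.01 ± 0.20 (edgeR adjusted p = 6.98e-05) and 1.35 ± 0.19 (edgeR adjusted p = 0.000432). The fibrinogen genes rose together, for example *Fga* by 1.61 ± 0.25 (edgeR adjusted p = 0.000961) and 1.12 ± 0.24 (edgeR adjusted p = 0.00433). *Ecm1* fell. After the GC correction *Fgb* and *Fgg* no longer passed with NSC (edgeR adjusted p = 0.118 and 0.0523). *Madcam1*, the ligand of the *Itga4* and *Itgb7* pair, had at most 3 counts in every library. Of 36 adhesion complex genes, 3 rose and 3 fell with vehicle and 6 rose and 14 fell with NSC, with medians of -0.01, -0.19 and, between the treatments, -0.14. *Lims1*, which encodes a PINCH linker, rose by 0.71 ± 0.17 (edgeR adjusted p = 0.00906) with vehicle and 0.98 ± 0.17 (edgeR adjusted p = 0.00108) with NSC. *Lims2*, the other PINCH gene listed, fell in both (edgeR adjusted p = 0.00365 and 0.000358), with a log2 fold change of -1.43 ± 0.20 with NSC. *Ptk2b* fell in both too (edgeR adjusted p = 0.00254 and 0.000475). Of the kindlin genes, *Fermt2* rose by 0.85 ± 0.26 (edgeR adjusted p = 0.0247) with NSC, and *Fermt1* and *Fermt3* passed in neither comparison with baseline. Of the talin genes, *Tln1* had 0.13 ± 0.20 (edgeR adjusted p = 0.685) with vehicle and -0.64 ± 0.20 (edgeR adjusted p = 0.0274) with NSC. *Tln2* also fell with NSC (edgeR adjusted p = 0.0268). After the GC correction 2 of these 36 rose and 9 fell with NSC, where 30.4% of all tested genes passed. *Fermt2* (0.56, edgeR adjusted p = 0.112) and *Tln1* (-0.31, edgeR adjusted p = 0.198) no longer passed, while *Lims2* and *Tln2* still fell (edgeR adjusted p = 0.000923 and 0.0479).

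Markers of the other liver cells moved too, and their part in the laminin and integrin results was not tested. For all marker counts against baseline, the share of all tested genes that passed was 23.7% with vehicle and 34.7% with NSC. The 10 hepatocyte markers had 0 rising and 6 falling with vehicle and 0 rising and 7 falling with NSC, with summed levels of 128853 to 135244 CPM at baseline, 95814 to 134213 CPM with vehicle and 97592 to 116020 CPM with NSC. All NSC livers were below all baseline livers in this sum. Of 8 tested cholangiocyte markers 4 rose with vehicle and 2 with NSC (summed levels of all 10 listed 35.1 to 61.3, 56.8 to 80.4 and 50.04 to 88.3 CPM), and of 12 sinusoidal endothelial markers 3 and 2 fell (354 to 382, 238 to 342 and 233 to 399 CPM). Of 7 vascular endothelial markers 1 rose with vehicle and 0 passed with NSC (11.6 to 15.3, 17.2 to 21.3 and 11.2 to 27.4 CPM), and of 5 tested dendritic cell markers 1 fell with vehicle (summed levels of all 7 listed 8.91 to 9.50, 7.83 to 9.10 and 6.89 to 11.01 CPM). Of 6 mesothelial markers 4 rose with vehicle and 2 with NSC, and their summed level was 2.14 to 4.32 CPM at baseline, 25.05 to 30.5 CPM with vehicle and 1.13 to 26.9 CPM with NSC, with NSC liver 3 the lowest. None of the marker lists had a gene that passed edgeR's test between the treatments. DESeq2 called 4 stellate cell, 2 hepatocyte and 1 cholangiocyte marker lower and 5 macrophage markers higher with NSC, where 2.98% of all genes passed.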

How the data were processed

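RNA-Seq of mouse liver tissue was analysed in 9 libraries, 3 per group, grouped by the labels. The authors aligned reads with STAR 2.6.1 within MAP-RSeq and assigned them to genes with featureCounts of Subread 1.5.1. The deposited table holds raw counts per gene, without normalization, and FPKM values that the authors derived from them. FPKM was recomputed from count, deposited gene length plus 1 base and library total, and values above 1 differed by a fraction of at most 4.96e-10. The sources name a human build, hg38, but identifiers and coordinates in the table are mouse, and 28 of the 38 genes had the same start and end in GENCODE M21 (GRCm38). No mitochondrial gene had a count. The study gives 3 biological replicates per group, and the labels number the livers but do not say how they were drawn. The p-values weigh the differences between groups against the spread between these livers.

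The test was run on the raw counts by edgeR 4.0.16 under R 4.3.3 (TMM factors, filterByExpr, robust quasi-likelihood fit of all 9 libraries, group as the only term, Benjamini-Hochberg over 15024 genes, threshold 0.05). The methods of the study name edgeR but no test. Alternatives used DESeq2 1.42.0, other scalings, filters and thresholds, the replicate number as a term, only the compared groups, each library left out and, added after the data were seen, a loess correction for GC content (span 0.5; known for 99.2% of tested genes). Summaries used pandas 2.3.3, and matplotlib 3.10.9 drew the figures (Python 3.11.15). The fit was tested on simulated data for vehicle against baseline. Of 200 genes changed 4-fold 165 were called, with 11 false calls, and of 200 changed 8-fold 193, with 14 false calls. With no gene changed, 0 of 15024 were called. Changes under 4-fold and the comparisons with NSC were not simulated, so recovery there is not known. All changes of laminin and integrin genes that passed were under 4-fold. No library repeated another of its group, since these differed by a chi-square per gene of 22.9 to 139.6.

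The genes and lists were chosen with earlier results of these data known. Genes named with every value are those that passed in at least 1 comparison and the 4 with the smallest p between the treatments. *Itga5* and *Itgam* were also given in full, chosen after their values were seen, as were the genes named from the lists. The lists came from general knowledge and covered basement membrane partners, other integrin ligands, adhesion complex genes and markers of cholangiocytes, stellate cells, sinusoidal and vascular endothelium, macrophages, neutrophils, lymphocytes, dendritic cells, platelets, mesothelium and hepatocytes. Promoter windows are from RefSeq (GRCm38.p6). A laminin gene of the set is counted in the totals and is not reported here by itself.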

Additional observations from a re-analysis of the deposited data

Results flagged for a closer look

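*Lama5* stood out because the 40 h livers of the 2 groups lay on opposite sides of the baseline mean of 4.87 ± 0.347 CPM (SD, n = 3). All 3 vehicle livers were above that mean (6.45 ± 1.33 CPM) and all 3 NSC livers below it (3.05 ± 0.767 CPM), although neither group passed the test against baseline (edgeR adjusted p = 0.244 and 0.0531), and the log2 fold change of NSC against vehicle was -1.08 ± 0.25. The test of this difference did not pass over all tested genes (edgeR adjusted p = 0.0849), and over the alternatives the adjusted p ranged from 0.0048 to 0.41. After the GC correction the log2 fold change was -0.65.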

How the results depend on the processing

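Over the alternatives tried, no log2 fold change that passed turned its direction, nor did those of the 4 genes that led the direct comparison. Among tested genes that did not pass, up to 4 turned with vehicle, 11 with NSC and 8 between the treatments in a single alternative, such as *Lama2* with NSC, from 0.11 to -0.07 after the GC correction. *Itga6* and *Itga7* with NSC and *Itga8* with vehicle passed in all 17 alternatives that asked only for an adjusted p under 0.05, while *Itga1*, *Lamb2* and *Lamc3* with NSC each passed in 9 of these 17. Requiring an absolute log2 fold change over 1.5 left 0 genes in place of 4 with vehicle and 1 in place of 11 with NSC. DESeq2 called 8 genes with vehicle and 3 between the treatments in place of 0 (*Lama5*, *Lamb2* and *Itga3*), against 17.1% and 2.98% of all genes, a fit of only the 2 groups called 10 with vehicle (30.5% of all genes), and no filter on low counts called 1 between the treatments (*Lama5*, 0.909% of all genes). The GC correction called 3 genes with NSC in place of 11, and 2 of them (*Itga6* and *Itga7*) are among the 11. The cause was not tested. Scaling by library size alone moved the median of all genes to 0.15 for NSC against baseline and 0.14 for NSC against vehicle, and 9 genes passed with NSC (34.6% of all tested genes).

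Leaving out 1 library at a time gave 1 to 9 genes with vehicle, 4 to 13 with NSC and 0 to 3 between the treatments. The shares of all tested genes in these fits were 14.8% to 29.5%, 23.4% to 33.9% and 0% to 6.46%. *Itgav*, *Itga6* and *Lamc1* lost their call with vehicle without any 1 of the baseline livers, *Itgav* and *Lamc1* without vehicle liver 1, *Itga6* and *Lamc1* without vehicle liver 2, *Itgav* without vehicle liver 3 and *Lamc1* without NSC liver 2. With NSC, baseline liver 3 held most calls: without it *Itga8*, *Itga2b*, *Itga3*, *Itgb7*, *Itga1*, *Lamc3* and *Lamb2* no longer passed, and each other liver left out ended at most 3 calls. The 3 calls between the treatments came without NSC liver 1.

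With the replicate number as a block, 5 genes passed with vehicle, 12 with NSC and 0 between the treatments, against 23.8%, 34.5% and 0.0732% of all tested genes. *Lama3* joined the calls with vehicle, *Lama3* and *Lama5* joined those with NSC, and *Lamc3* lost its call with NSC. Deviations of same-numbered livers from their group means correlated at -0.048 to 0.13, and those of other pairs at -0.12 to 0.066. Same-numbered pairs with an NSC liver were all above 0, at 0.016 to 0.092 with baseline and 0.019 to 0.13 with vehicle. Same-numbered baseline and vehicle livers lay at -0.048 to 0.081. The numbers were not taken to pair the livers, and the labels do not say whether they do. What same-numbered livers may share was not tested. *Itgad*, *Itgb2l*, *Itgb6* and *Itga11* had too few counts to enter the test.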
